A study of Arabidopsis thaliana with 22 samples.

Results

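The 5 genes AT1G01250, APL3 (AT4G39210), LEA4-5 (AT5G06760), AT2G25625 and AT5G53710 of *Arabidopsis thaliana* were selected on their measured values, which were higher in DEX-treated than in Mock-treated GL1-GR seedlings at 4 h. They make 5 of the 22746 probe sets on the array that are not controls, and each of these protein-coding loci had 1 probe set. Because they were chosen by the GL1-GR arrays of 4 h, the values on those arrays are a description and carry no test.

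The tested plants were *gl1* mutants with pGL1::GL1-GR or *gl3 egl3* double mutants with pGL3::GL3-GR, given DEX (dexamethasone) at an age of 15 days, and the matching Mock plants of the same mutant and transgene received ethanol, the solvent of DEX. Each transgene was driven by the factor's own promoter, so that only cells in which that promoter is active carry the fusion, while the RNA came from bulk tissue of seedlings pooled for each extraction. Tissue was taken 4 or 24 h after treatment, which gave 8 groups of 3 arrays each, except for GL3-GR DEX and GL3-GR Mock at 24 h, with 2 arrays each. The study's array methods name green tissues for these plants, while its RNA methods for DEX treatment name green tissues or whole seedlings. Values were log2 expression values from Affymetrix ATH1 arrays, so that a difference of 1 is a doubling of signal.

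GL1 is an R2R3-MYB and GL3 a bHLH factor, and together they start the formation of trichomes, the leaf hairs. Fusion to a glucocorticoid receptor domain (GR) holds each factor inactive until the steroid DEX is supplied. Of the genes described here, APL3 is a large subunit of ADP-glucose pyrophosphorylase, the enzyme that commits sugar to starch. LEA4-5 is a late embryogenesis abundant protein, one of the hydrophilic proteins that plants accumulate as seeds or tissues dry. AT1G01250 belongs to the AP2/ERF family of transcription factors, and the annotation used here gives no role for AT2G25625 or AT5G53710.

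The 22 arrays fall into 4 sets, each a line at a time, whose lowest values differed (2.10 in GL1-GR at 4 h, 1.97 in GL1-GR at 24 h, 2.25 to 2.26 in GL3-GR at 4 h and 2.05 in GL3-GR at 24 h), and this has the form of 4 separate normalizations. Array medians were 5.96 to 6.06 in GL1-GR at 4 h, 4.45 to 4.58 in GL1-GR at 24 h, 3.62 to 3.72 in GL3-GR at 4 h and 4.67 to 4.72 in GL3-GR at 24 h. A difference between sets therefore holds any difference in normalization, and the 2 cannot be told apart. RCA (rubisco activase), a marker of green tissue, stood at 10.64 or above on all arrays. PYK10, a beta-glucosidase abundant in roots, was also high, with means of 12.40 in DEX and 12.37 in Mock seedlings of GL1-GR at 4 h, 13.15 in DEX and 13.23 in Mock at 24 h, 9.63 in DEX and 9.45 in Mock seedlings of GL3-GR at 4 h, and 11.92 in DEX and 11.98 in Mock at 24 h. It did not pass the test in any comparison, the root hair gene EXPA7 lay within 0.5 of the lowest value on all arrays, and the part of root tissue in the levels between sets was not tested. Of 5 markers of trichome initiation, MYB23 and TTG2 lay within 0.5 of the lowest value on all arrays, and GL2 did so in all groups but those of GL1-GR at 4 h. The R3-MYB genes CPC and TRY did not pass the test in any comparison. In GL1-GR, DEX minus Mock was -0.06 for CPC and -0.29 for TRY at 4 h, and -0.02 and -0.08 at 24 h. In GL3-GR it was -1.18 for CPC and -0.68 for TRY at 4 h, and 0.06 and 0.02 at 24 h. All DEX arrays lay below all Mock arrays for CPC in GL3-GR at 4 h, where its limma SE was 0.56.

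In GL1-GR at 4 h, AT1G01250 read 6.23, 6.25 and 5.86 on the 3 DEX arrays, against 5.48, 5.44 and 4.96 on the 3 Mock arrays. The groups did not overlap, and the lowest array of each was replicate 3. The means were 6.11 ± 0.22 in DEX seedlings and 5.29 ± 0.29 in Mock seedlings (SD, n = 3 each), a difference of 0.82 or 1.76-fold.

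APL3 read 8.97, 9.07 and 9.66 on the DEX arrays, against 8.58, 8.23 and 8.31 on the Mock arrays of GL1-GR at 4 h. Again the groups did not overlap, and DEX replicate 3 stood apart at the top. The mean was 9.23 ± 0.37 in DEX seedlings and 8.37 ± 0.18 in Mock seedlings (SD, n = 3 each), a difference of 0.86 or 1.81-fold, which was 0.65 without DEX replicate 3.

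LEA4-5 read 6.59, 7.87 and 6.88 on the DEX arrays, against 5.66, 6.25 and 5.66 on the Mock arrays. Replicate 2 was the highest array of both treatments, and the groups did not overlap. The mean was 7.11 ± 0.67 in DEX seedlings and 5.85 ± 0.34 in Mock seedlings (SD, n = 3 each). The difference of 1.26, or 2.39-fold, ranged over 0.88 to 1.52 when single arrays were left out.

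AT2G25625 read 5.03, 6.36 and 5.37 on the DEX arrays, against 4.84, 4.12 and 4.43 on the Mock arrays. The groups were separated by only 0.19, between DEX replicate 1 and Mock replicate 1. The mean was 5.59 ± 0.69 in DEX seedlings and 4.46 ± 0.36 in Mock seedlings (SD, n = 3 each), a difference of 1.12 or 2.18-fold. One array carried much of it, since the difference was 0.74 without DEX replicate 2.

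AT5G53710 read 6.97, 7.57 and 7.41 on the DEX arrays, against 6.54, 5.69 and 6.04 on the Mock arrays. No Mock array reached the lowest DEX array, and Mock replicate 1 came closest. The mean was 7.32 ± 0.31 in DEX seedlings and 6.09 ± 0.43 in Mock seedlings (SD, n = 3 each), a difference of 1.23 or 2.34-fold, with a range of 1.03 to 1.45 when single arrays were left out.

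**Figure D1:**
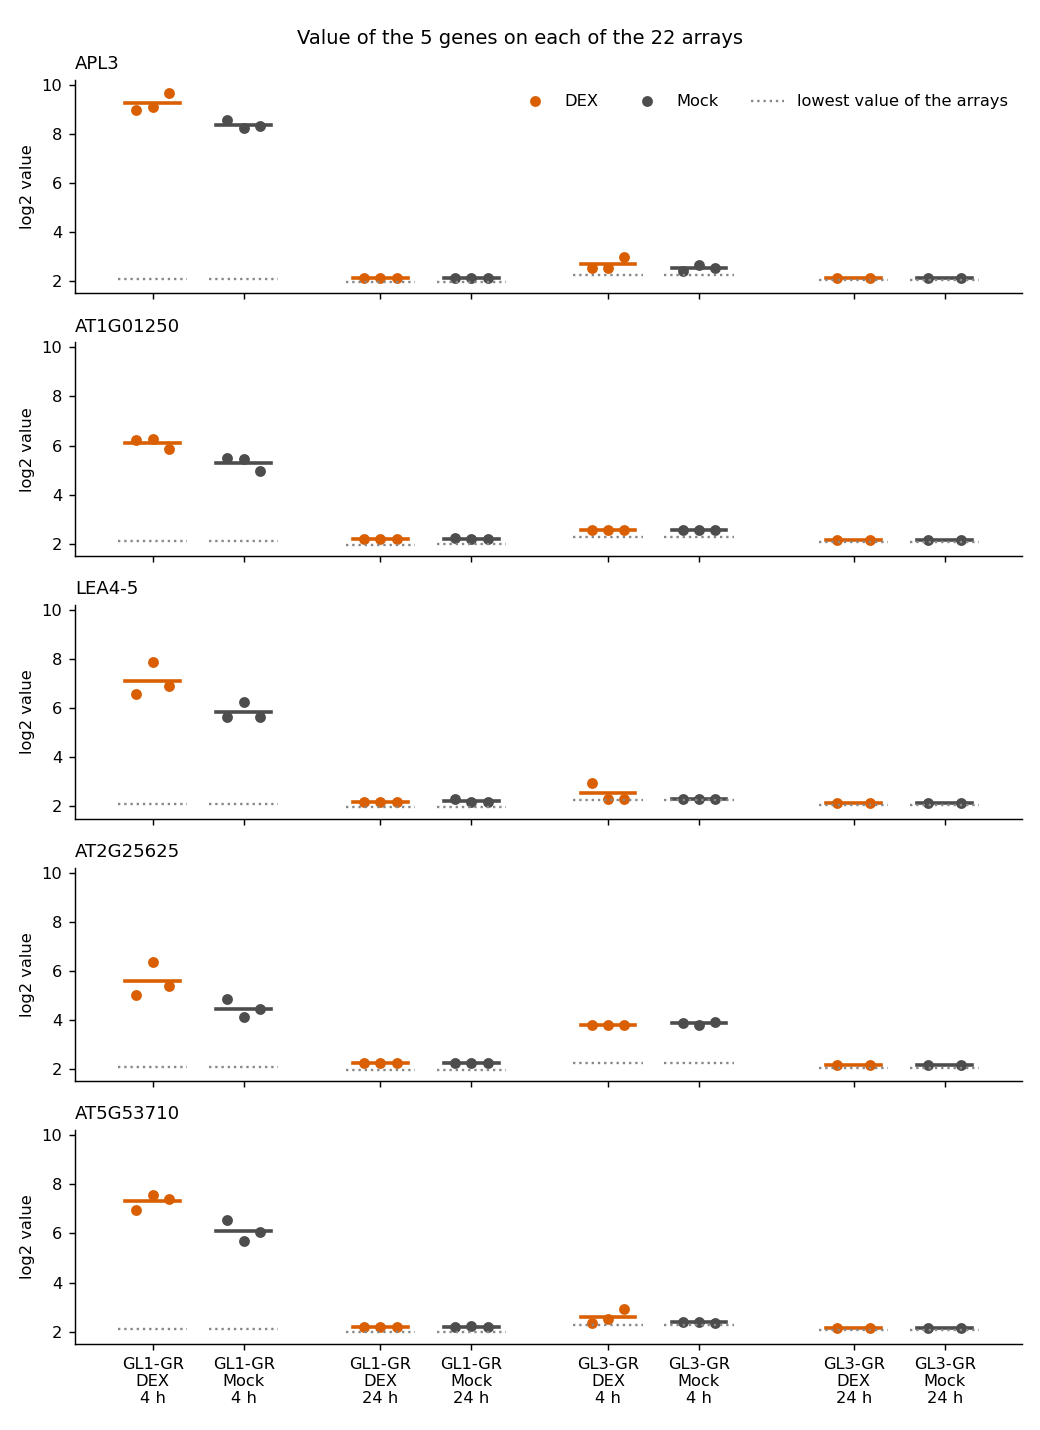
Log2 value of each gene (1 panel per gene) on each of the 22 arrays, with DEX groups in orange, Mock groups in grey, bars at group means and dotted lines at the lowest value of the arrays. All 5 genes stand well above the lowest value in GL1-GR at 4 h, where DEX arrays lie above Mock arrays, and 4 of them lie near it in the other 6 groups.

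DEX arrays lay above all Mock arrays for 5 of the 5 genes, which follows from how they were chosen, and for 8.92% of the 13772 probe sets tested in GL1-GR at 4 h. Ranked by the difference, LEA4-5 was 9th from the top, AT5G53710 number 10, AT2G25625 number 13, APL3 number 31 and AT1G01250 number 36. The residual spread of the genes was large as well: the pooled SD within groups was 0.55 for AT2G25625, wider than that of 98.8% of the probe sets tested. It was 0.53 for LEA4-5 (wider than 98.6%), 0.37 for AT5G53710 (94.1%), 0.29 for APL3 (86.7%) and 0.25 for AT1G01250 (80.1%). In the limma fit over these 6 arrays, 1 of 13772 probe sets (0.00726%) passed an adjusted p of 0.05, and 0 did when any 1 of the 6 arrays was left out (689 to 1463 at an unadjusted p under 0.05). The probe set that passed has no gene name here, is not one of the 5 genes, and was singled out after its values were seen.

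**Figure D2:**
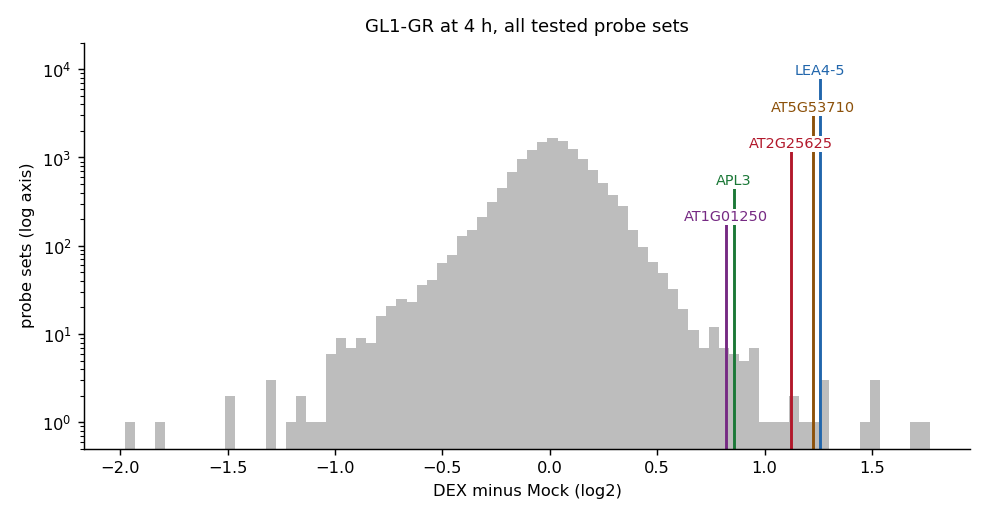
Number of tested probe sets (log axis) by DEX minus Mock difference (log2) in GL1-GR at 4 h, with the 5 genes marked by coloured lines. The genes lie in the upper tail, between 0.82 for AT1G01250 and 1.26 for LEA4-5, and the largest positive difference of all is 1.77.

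Among the 6 arrays of GL1-GR at 4 h, AT1G01250, LEA4-5, AT2G25625 and AT5G53710 were highest on DEX replicate 2, though AT1G01250 by only a small margin over DEX replicate 1. APL3 was highest on DEX replicate 3, the array on which AT1G01250 had its lowest DEX value. After the group means were taken away, the correlation over the 6 arrays was 0.82 between AT5G53710 and AT2G25625, 0.62 between LEA4-5 and AT2G25625, 0.56 between AT5G53710 and APL3 and -0.41 between AT1G01250 and APL3. These correlations describe only 6 arrays in 2 groups, and no test was run on them.

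**Figure D3:**
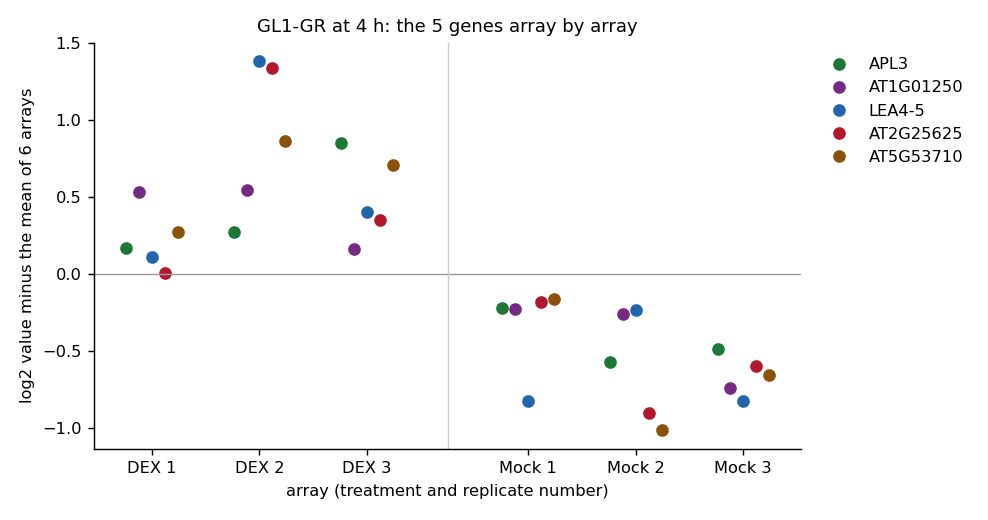
Log2 value minus the gene's mean over the 6 GL1-GR arrays of 4 h, for DEX replicates 1 to 3 and Mock replicates 1 to 3, with 1 colour per gene. All DEX points lie above 0 and all Mock points below it, and 4 genes stand highest on DEX replicate 2 whereas APL3 does so on DEX replicate 3.

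Outside GL1-GR at 4 h, 4 of the 5 genes lay close to the lowest value of the arrays and did not pass the filter on low values in any of the other 3 sets, so their DEX and Mock values there were not tested. AT2G25625 passed it in GL3-GR at 4 h alone. Filtering left 13711 probe sets for GL1-GR at 24 h, 14348 for GL3-GR at 4 h and 13633 for GL3-GR at 24 h.

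In GL1-GR at 24 h, APL3 read 2.12 to 2.13 on both the DEX and the Mock arrays, and AT2G25625 read 2.23 on the DEX arrays and 2.23 to 2.24 on the Mock arrays. AT5G53710 read 2.18 to 2.20 on the DEX arrays and 2.18 to 2.23 on the Mock arrays. AT1G01250 read 2.19 on the DEX arrays and 2.19 to 2.24 on the Mock arrays. LEA4-5 read 2.16 on all 3 DEX arrays, against 2.32, 2.16 and 2.16 on the Mock arrays. DEX and Mock overlapped for all 5 genes, and values this near the lowest have no order. Across all probe sets tested at this time, 3.23% had every DEX array above every Mock array, and limma called 0 (0.0%) at an adjusted p of 0.05, with 261 at an unadjusted p under 0.05.

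In GL3-GR at 24 h, DEX minus Mock was -0.0012 or closer to 0 for each of the 5 genes, and the groups overlapped. The values were 2.13 for APL3, 2.14 for AT5G53710 and LEA4-5, 2.15 for AT2G25625 and 2.16 for AT1G01250 on all 4 arrays. Here 14.5% of the probe sets tested had both DEX arrays above both Mock arrays. Limma called 0 of them (0.0%), with 812 at an unadjusted p under 0.05.

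In GL3-GR at 4 h, single DEX arrays stood above the rest for 3 genes. LEA4-5 read 2.96, 2.31 and 2.32 on the DEX arrays, against 2.31, 2.31 and 2.30 on the Mock arrays. APL3 read 2.54, 2.54 and 2.97 on the DEX arrays, against 2.41, 2.66 and 2.54 on the Mock arrays. The third gene was AT5G53710, with 2.34, 2.52 and 2.93 on the DEX arrays, against 2.41, 2.39 and 2.36 on the Mock arrays. The array that stood out was DEX replicate 1 for LEA4-5 and DEX replicate 3 for APL3 and AT5G53710, and in each case at least 1 other DEX array lay within the range of the Mock arrays or below it. AT1G01250 stayed at 2.55 to 2.56 on all 6 arrays. None of these 4 genes was tested in this set.

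AT2G25625 was the exception in GL3-GR at 4 h, with 3.80, 3.80 and 3.81 on the DEX arrays, against 3.85, 3.80 and 3.92 on the Mock arrays. The groups overlapped and the spread was narrow, since the pooled SD was 0.043 and only 0.739% of the probe sets tested had a smaller one. On the DEX arrays alone the SD of AT2G25625 was 0.0063, against 0.0037 for AT1G01250, which did not pass the filter in this set. Whether AT2G25625 was detected above background in GL3-GR at 4 h was not tested. The SE was 0.035 under the methods' t-test, which uses the gene's own values alone. It was 0.18 in limma, which also draws on the spread of other probe sets. The fitted difference was -0.06 with a limma adjusted p of 0.997, and its 95% interval, from the limma SE, was -0.50 to 0.39. It was not tested against the difference in GL1-GR at 4 h, because that value was used in choosing the gene. In the same fit 0 of 14348 probe sets (0.0%) passed an adjusted p of 0.05, with 433 at an unadjusted p under 0.05, and 2.56% had every DEX array above every Mock array.

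For APL3, AT1G01250, LEA4-5 and AT5G53710, GL1-GR at 4 h was thus the only set with values that passed the filter, and no order can be read among the other 3. The mean over the 6 arrays of GL1-GR at 4 h was 8.80 for APL3, 6.70 for AT5G53710, 6.48 for LEA4-5 and 5.70 for AT1G01250. The means in the other sets were not above 2.61 for any of the 4, and no difference is given against such values.

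AT2G25625 passed the filter in GL1-GR and GL3-GR at 4 h, and which of the 2 sets had the higher mean depended on the scaling. Its mean was 5.03 in GL1-GR at 4 h and 3.83 in GL3-GR at 4 h as deposited, a difference of 1.19, which turned to -1.37 after quantile normalization of all 22 arrays, tried after the levels had been seen. In rank within the array it lay at the percentile 43.3 to 52.5 on the GL1-GR DEX arrays of 4 h, 39.0 to 42.1 on the matching Mock arrays, and 50.9 to 52.8 on the 6 arrays of GL3-GR at 4 h. APL3, by contrast, lay at the percentile 80.2 to 87.2 on the GL1-GR DEX arrays and 72.7 to 76.7 on the GL1-GR Mock arrays of 4 h, against 20.7 to 36.9 in GL3-GR at 4 h and 4.6 to 5.9 on the arrays of 24 h.

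Of the 13772 probe sets tested in GL1-GR at 4 h, 417 (3.03%) passed the filter there and nowhere else. The same count was 216 of 13711 (1.58%) for GL1-GR at 24 h, 1175 of 14348 (8.19%) for GL3-GR at 4 h and 132 of 13633 (0.968%) for GL3-GR at 24 h. The 417 of GL1-GR at 4 h had a median DEX minus Mock difference of 0.07, against 0.01 over all tested. In 36 probe sets the difference was at least as large as that of AT1G01250. Of these, 6 (16.7%) passed the filter in GL1-GR at 4 h alone, namely 4 of the 5 genes, AT1G71000 and the unnamed probe set that passed the limma test. Both the cut and 4 of the 6 come from the choice of the genes, so the share of 16.7% is no result beside 3.03%. AT1G71000 had a difference of 0.94, with a mean of 6.76 in GL1-GR at 4 h and 2.15, 2.43 and 2.14 in GL1-GR at 24 h, GL3-GR at 4 h and GL3-GR at 24 h. In bulk tissue, fewer cells of a type and less RNA per cell cannot be told apart.

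The other named probe sets among these 36, picked out after their values were seen, were AT3G02480, EXPA16, AT2G41190, AT2G47950, AT4G02360 and SAG29. Unlike the 4 genes, all of them passed the filter in at least 1 further set. AT3G02480 differed by 1.51 in GL1-GR at 4 h, where its mean was 9.28, and it kept a mean of 4.11 in GL1-GR at 24 h. SAG29, a gene of senescing leaves that encodes a sugar transporter, differed by 0.88, with DEX and Mock arrays overlapping. EXPA16, an expansin of the cell wall, differed by 0.97 and had its highest deposited mean, 5.80, in GL3-GR at 24 h.

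APL4 encodes another large subunit of ADP-glucose pyrophosphorylase and came nearest to APL3 among genes of its pathway. It read 6.59, 7.07 and 6.89 on the GL1-GR DEX arrays of 4 h, against 6.64, 5.83 and 5.65 on the Mock arrays. DEX and Mock overlapped through Mock replicate 1. The means were 6.85 ± 0.24 in DEX seedlings and 6.04 ± 0.53 in Mock seedlings (SD, n = 3 each), and the difference of 0.81 had a limma SE of 0.27 and an adjusted p of 0.60. As with APL3, it passed the filter in GL1-GR at 4 h alone, with 2.12 to 2.13 on all arrays of 24 h and 2.49 to 2.87 in GL3-GR at 4 h.

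SBE2.2, a starch branching enzyme, was measured well above the lowest value in every set. DEX minus Mock was 0.18 in GL1-GR at 4 h and -0.06 in GL1-GR at 24 h. It was -0.92 in GL3-GR at 4 h and 0.09 in GL3-GR at 24 h, and SBE2.2 passed the test in no set. In GL3-GR at 4 h all DEX arrays lay below all Mock arrays, though narrowly. The highest DEX array read 8.1958 and the lowest Mock array 8.2015. Only 2 of the 16 starch genes listed besides APL3 had a named probe set, so the pathway was seen in part.

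Of 19 listed LEA and dehydration genes, 6 had a named probe set and 4 were tested in GL1-GR at 4 h. Their median difference was 0.10, against 0.01 over all tested, and 0 passed in either direction. AT3G02480, described above with a difference of 1.51 in GL1-GR at 4 h, was not on this list. COR15A, a cold-induced chloroplast protein, had the widest difference of the 4, with 12.49 ± 0.28 in DEX seedlings and 12.18 ± 0.04 in Mock seedlings (SD, n = 3 each). This difference of 0.30 left the groups apart but did not pass the limma test (adjusted p = 0.68). COR15B differed by 0.17, the dehydrin LTI30 by 0.03 and the dehydrin COR47 by -0.004. LEA4-1, which by name belongs to the same LEA group as LEA4-5, did not pass the filter, with 2.25 in DEX seedlings and 2.36 in Mock seedlings. These genes were also tested in the other sets. Of them 0 of 4 passed in GL1-GR at 24 h, 0 of 5 in GL3-GR at 4 h and 0 of 4 in GL3-GR at 24 h. In GL3-GR at 4 h the limma SE was 1.91 for COR15A, 1.82 for COR15B and 1.90 for LTI30. Even large differences of these genes could go uncalled there. COR15A, COR15B, COR47 and LTI30 passed the filter in all 4 sets, whereas LEA4-5 did so in 1.

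Among listed genes of the DREB branch of AP2/ERF factors, 6 of 16 had a named probe set and only TINY, a regulator of this branch, was tested in GL1-GR at 4 h. It averaged 5.32 ± 0.11 in DEX seedlings and 5.59 ± 0.22 in Mock seedlings (SD, n = 3 each), a difference of -0.26 that did not pass the limma test (adjusted p = 0.68). HRD, TINY2, ERF021, ERF022 and ERF025 did not pass the filter there.

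Of 15 listed genes of senescence and chloroplast breakdown, 4 were tested in each set and 0 passed in any. SAG29, described above with a difference of 0.88 in GL1-GR at 4 h, was not on this list. In GL1-GR at 4 h the differences were 0.17 for ATG8A (autophagy), 0.04 for SAG101, -0.02 for WRKY53 and -0.36 for WRKY6, with a median of 0.01, against 0.01 over all tested. WRKY6 lay lower on all DEX arrays than on the Mock arrays, with 7.15 ± 0.20 in DEX seedlings and 7.50 ± 0.11 in Mock seedlings (SD, n = 3 each), and did not pass the limma test (adjusted p = 0.60). At 24 h in GL3-GR, the senescence regulator WRKY53 averaged 7.76 on the DEX arrays and 9.16 on the Mock arrays, a difference of -1.40 with an SE of 0.75 (limma adjusted p = 0.79).

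**Figure D4:**
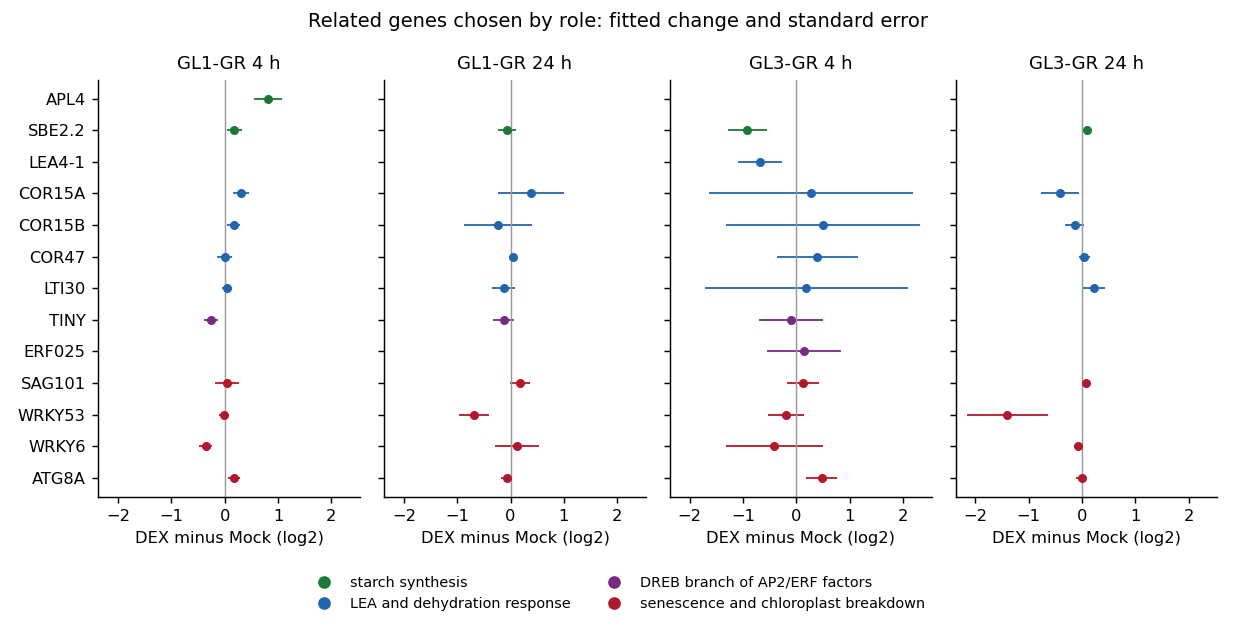
Fitted DEX minus Mock difference (log2) with its limma SE for the listed genes that passed the filter, in the 4 comparisons, coloured by list. APL4 lies farthest right in GL1-GR at 4 h at 0.81, error bars are widest in GL3-GR at 4 h, and no point passes an adjusted p of 0.05.

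Genes next to the members on the chromosome and measured on the array differed less than the members did. The members were picked for higher DEX values on these same arrays, so this order follows from the choice and says nothing about location. The neighbours of APL3 were AT4G39200, with a difference of -0.07 in GL1-GR at 4 h, and ATRER1A with -0.13. AT1G01240 beside AT1G01250 differed by -0.04, and AT5G06770 beside LEA4-5 by -0.25. No neighbour of AT2G25625 or AT5G53710 had a named probe set.

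Likeness to each gene was measured as Pearson's r over the 22 arrays after the mean of each set was taken away, among 7458 named probe sets (6647 for AT2G25625). Since the genes vary almost only on the 6 GL1-GR arrays of 4 h, on which they were chosen, these r values describe those arrays. Only the set mean was removed, so r also holds the DEX minus Mock difference by which the genes were picked. For AT5G53710 the highest was AT3G54390 with 0.93, before AT1G19970 and AT5G27240 with 0.91 each. For AT1G01250 it was AT5G47800 with 0.96, before AT1G71000 with 0.93 and AT4G32920 with 0.92. AT5G53710 came first for APL3 with 0.90, followed by URE, the urease gene, with 0.90 and AT1G56520 with 0.89. LEA4-5 was most like AT4G33905 with 0.86, then AT1G71000 with 0.83 and AT2G25625 with 0.81. AT2G25625 was most like AT2G47950 with 0.89, then AT3G57600 with 0.83 and AT5G50360 with 0.79. AT1G71000 was among the 3 most alike for both AT1G01250 and LEA4-5, and 2 of the 5 genes, AT5G53710 and AT2G25625, stood on the list of another. This follows in part from the shared difference. With group means removed over the 6 arrays, r was 0.56 between AT5G53710 and APL3 and 0.62 between LEA4-5 and AT2G25625. No r over the other 16 arrays is given, because 4 of the genes did not pass the filter in those sets.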

How the data were processed

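RNA was measured on 22 one-colour ATH1 arrays, of which none of 231 pairs was identical. The deposited values are log2 expression values per probe set, made by the authors with GCRMA, which subtracts a sequence-dependent background, brings arrays processed together to 1 distribution and leaves undetected probe sets at a lowest value. The number of runs, the centring and the version are not given in the sources used here. The number of arrays limits the precision. Control probe sets (64) were left out. The platform table named 1 gene for 13513 probe sets, several for 503 and none for 8730, and 13436 matched RefSeq (TAIR10.1). Marker genes that the table leaves unnamed took their names from identifiers in the study's trichome gene list. Coordinates are left out, since the array files name no build.

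A probe set was tested in a set if 2 or more arrays had it above their own 40th percentile. DEX was compared with Mock in each set on its own arrays by limma 3.58.1 in R 4.3.3 (two-sided, Benjamini-Hochberg over all tested, threshold 0.05), which was tested on simulated data. Replicates were biologically independent materials per the study's methods. The genes and lists were chosen with earlier results of these data known. Named genes were the 5 genes, the 3 most alike per gene, and list genes that passed or else had the largest changes. All 22 arrays in 1 fit, quantile normalization, other filters, the methods' t-test, a replicate block and single arrays left out were tried.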

Additional observations from a re-analysis of the deposited data

How the results depend on the processing

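In GL1-GR at 4 h the count of probe sets past the threshold was 1, and became 4 with all 22 arrays in 1 fit (2 of them AT5G53710 and AT1G01250, which were chosen on these values), 0 under the methods' t-test (168 at an unadjusted p under 0.01), 0 with the replicate block, and 0 to 0 without single arrays, each of the 6 in turn. In GL1-GR at 24 h the count of 0 became 1 with all 22 arrays in 1 fit, 1 with no filter on low values and 1 under the methods' t-test. In GL3-GR at 4 h the count of 0 became 139 with all 22 arrays in 1 fit, where the arrays of all sets share 1 estimate of spread. The cause of these changes was not tested. The GL3-GR count at 24 h and the difference between the lines' responses at 24 h stayed at 0 under the alternatives run. Same-numbered arrays correlated at 0.013 to 0.12 in GL1-GR at 4 h and 0.061 to 0.36 in GL1-GR at 24 h. The values were 0.069 to 0.30 in GL3-GR at 4 h and -0.14 in GL3-GR at 24 h. Arrays with different numbers reached 0.39 in GL1-GR at 24 h. The numbers were therefore not taken as pairs, though whether they are pairs is not known, and the replicate block left the other counts at 0. With the numbers crossed in GL3-GR at 24 h, chosen after seeing the data, the count was 0 as well.

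With single arrays left out, DEX minus Mock of the 5 genes in GL1-GR at 4 h ranged from 0.65 to 1.52. The lowest was APL3 without DEX replicate 3, and the highest LEA4-5 without DEX replicate 1. The sign could not change, because all DEX arrays lay above all Mock arrays, which follows from how the genes were chosen. Quantile normalization gave 1.69 for LEA4-5 and 1.65 for AT5G53710. AT2G25625 no longer had its highest mean in GL1-GR at 4 h under quantile normalization, with a GL1-GR 4 h mean minus GL3-GR 4 h mean of -1.37. Its GL3-GR difference at 4 h did not pass the threshold under any alternative. Values near the lowest value limit what can be read outside GL1-GR at 4 h: 30.6% to 41.3% of probe sets were within 0.5 of it, depending on the array.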
